A study of Mus musculus with 3 samples.

Results

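The cells described here are the Foxp3 regulatory T cells of the mouse infrarenal aorta, 192 of the 9750 cells kept in 3 single-cell RNA libraries. Members were chosen by their own UMI counts. A cell was a member when it had at least 200 genes and at most 10% of its unique molecular identifiers (UMIs, each the count of 1 captured RNA molecule) from mitochondrial genes, and at least 2 UMIs over Cd3d, Cd3e and Cd3g. It also had at least 1 UMI of Foxp3, or at least 1 UMI each of Ikzf2 and Ctla4, and none of Cd8a, Cd8b1, Trdc, Cd163l1 or Cd79a. The rule found 112 members in the library titled AAA_14, 54 in the library titled AAA_7 and 26 in the Sham library.

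The study set immune cells of abdominal aortic aneurysms against those of normal aortas. All 3 libraries came from wild type mice, and living CD45-positive cells, that is, blood-derived cells, were enriched with magnetic beads from the part of the abdominal aorta below the kidney arteries. AAA_14 was labelled as treated with elastase, an enzyme that breaks down elastic fibres, and Sham with phosphate-buffered saline. AAA_7 was titled as an aneurysm library while its treatment label named saline, so its treatment is in doubt and it is called here by its title; the unit of the 7 and the 14 was not given in the labels. The aortas of a group were mixed before sequencing, 20 for an aneurysm group and 50 for the controls in the protocol, so each library is 1 sample of pooled animals. No test between libraries was therefore possible, and every interval on a level or share covers counting error only.

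Regulatory T cells are CD4 T cells that hold back other immune cells. The transcription factor FOXP3 fixes their identity, CTLA-4 strips costimulatory ligands from antigen-presenting cells, and CD25, encoded by Il2ra, captures interleukin-2. In tissues a part of these cells carries ST2, the interleukin-33 receptor encoded by Il1rl1, together with amphiregulin and KLRG1, and is known for roles in repair. Resting regulatory T cells circulate through lymphoid organs with CCR7, as resting conventional T cells do.

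The AAA_14 members held 972359 UMIs in all, the AAA_7 members 414272 and the Sham members 281632, with a median of 5891, 3724.5 and 5792.5 UMIs a cell in the same order. The mitochondrial limit removed unequal shares of barcodes: the filters together took out 47.7% in AAA_14, 7.64% in AAA_7 and 67.4% in Sham, and the members' median mitochondrial share was 7.14%, 1.59% and 8.11%. A single Sham member with 81533 UMIs held 29.0% of all Sham members' UMIs, against 3.97% for the deepest AAA_14 member and 9.18% for the deepest AAA_7 member. Between 5 and 12 barcodes were shared by any pair of libraries, and 1 of those shared was a member. RNA of other cell types was present and differed between libraries: 8 phagocyte markers summed to 1807 CPM (UMIs scaled to the same total in every library) in AAA_14 members and 2281 CPM in AAA_7 members, where all 8 were found, against 17.8 CPM in Sham members, where 2 of 8 were found and Lyz2, Csf1r, Adgre1, C1qa, C1qb and Fcgr3 were at 0. Without the 13 AAA_14, 9 AAA_7 and 1 Sham members that had 10 or more B cell, phagocyte or neutrophil marker UMIs, the phagocyte sum was 227, 231 and 18.1 CPM. Neutrophil markers summed to 255, 683 and 81.7 CPM, B cell markers to 66.8, 7.24 and 114 CPM, and both CD8 markers were at 0 by the rule.

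The label was checked against markers that the rule did not use. Il2ra was found in 70 of 112 AAA_14 members, 27 of 54 AAA_7 members and 12 of 26 Sham members, or 62.5%, 50% and 46.2%. In the other CD4 T cells, which had at least 2 CD3 UMIs and at least 1 Cd4 UMI and lay outside the regulatory rule, the shares were 6.8%, 6.49% and 1.33%. B cells, which should largely lack CD25, gave 2.83%, 0.714% and 0.278% at median depths of 5447.5, 2029.5 and 2401.5 UMIs. The markers in the rule itself are a description only. Foxp3 (chrX:7573644-7595245, plus strand, GRCm38) stood at 232 CPM from 226 UMIs in AAA_14 members, 212 CPM from 88 UMIs in AAA_7 members and 163 CPM from 46 UMIs in Sham members. Ikzf2, which encodes Helios, stood at 1020, 1106 and 1122 CPM in the same order, and Ctla4 at 666, 1031 and 366 CPM.

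How a cell entered the gate mattered for how much was known of it. A Foxp3 UMI was present in 65 AAA_14, 33 AAA_7 and 19 Sham members, and for 17, 13 and 10 of these it was the only one. The other 47 AAA_14, 21 AAA_7 and 7 Sham members entered through Ikzf2 and Ctla4 together. All 3 genes were found in 51, 24 and 16 members. Just inside the CD3 limit, with exactly 2 CD3 UMIs, lay 1 AAA_14, 3 AAA_7 and 0 Sham members; just outside it, with 1 CD3 UMI, lay 4, 5 and 0 cells. A Cd8 UMI kept out 21, 7 and 10 cells, a Cd79a UMI 29, 2 and 9, and a mitochondrial share between 10% and 20% another 45, 1 and 28. Among T cells with Ctla4 but neither Foxp3 nor Ikzf2, 79, 37 and 20 in number, Il2ra stood at 44.5, 55.1 and 8.59 CPM, against 262, 381 and 110 CPM in the members.

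The members made up 12.2% of T cells in AAA_14 (112 of 921; exact Clopper-Pearson 95% interval 10.1 to 14.4), 10.3% in AAA_7 (54 of 525; 7.82 to 13.2) and 6.25% in Sham (26 of 416; 4.12 to 9.02). Both the AAA_14 and the AAA_7 share lay above the Sham interval. The AAA_14 interval did not overlap it and the AAA_7 interval did. Of all cells kept, the members were 2.12% in AAA_14 (1.75 to 2.54), 1.67% in AAA_7 (1.26 to 2.18) and 2.11% in Sham (1.38 to 3.07). On that denominator neither the AAA_14 nor the AAA_7 share lay above the Sham interval. Thinned to 1000 UMIs a cell before the rule was applied, the shares of T cells were 6.21%, 7.46% and 3.15%. With a Foxp3 UMI required they were 7.06% in AAA_14, 6.29% in AAA_7 and 4.57% in Sham. Set against regulatory plus other CD4 T cells alone, the order differed. The members were 27.6% of these in AAA_14 (23.3 to 32.2), 41.2% in AAA_7 (32.7 to 50.2) and 25.7% in Sham (17.6 to 35.4). A Cd4 UMI was required of the other CD4 T cells but not of the members. It was found in 62.5%, 61.1% and 53.8% of the members. The other CD4 T cells had medians of 6045.5, 2905 and 4355 UMIs, and the part of depth in these shares was not tested. With a mitochondrial limit of 5%, 0 of 5 Sham T cells were members, so the Sham share rests on cells between the limits.

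To ask what else marked these cells, UMIs were summed over the members and over the other CD4 T cells of each library (294 in AAA_14, 77 in AAA_7 and 75 in Sham), and edgeR's quasi-likelihood test compared the populations over the 3 libraries with the library as a block. Of 5186 genes tested, 115 (2.22%) passed an adjusted p of 0.05, leaving out the genes of the gates. Of these, 42 (0.81%) were higher and 73 (1.41%) lower in the regulatory cells. Of the 13 genes tested from a list of 17 regulatory T cell identity genes, 9 rose and none fell, with a median log2 difference of 1.95 against 0.01 over all genes. The gene lists were chosen with earlier results of these data known.

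The receptors for interleukin-2 and for tumour necrosis factor ligands led the identity genes. Il2ra (chr2:11642807-11693193) rose by a log2 fold change of 3.47 (SE 0.32, adjusted p = 8.35e-05). It stood at 262, 381 and 110 CPM in AAA_14, AAA_7 and Sham members, against 22.5, 39.6 and 2.39 CPM in the other CD4 T cells of the same libraries. Tnfrsf4, which encodes the costimulatory receptor OX40, stood at 301, 442 and 415 CPM, against 41.3, 63.3 and 19.1 CPM (log2 fold change 3.04, SE 0.30, adjusted p = 0.000145). Its neighbour on chromosome 4, Tnfrsf18, encodes GITR and stood at 283, 241 and 220 CPM, against 51.3, 35.6 and 26.3 CPM (2.51, SE 0.26, adjusted p = 0.000207). The members of every library lay above the other CD4 T cells of every library for all 3 of these receptors. Tnfrsf9, which encodes 4-1BB, stood at 72.0, 294 and 42.6 CPM, against 14.2, 3.96 and 11.9 CPM (2.77, SE 0.48, adjusted p = 0.00975).

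Among transcription factors, Ikzf4, which encodes the FOXP3 partner Eos, stood at 78.2, 62.8 and 74.6 CPM in AAA_14, AAA_7 and Sham members, against 7.09, 19.8 and 2.39 CPM in other CD4 T cells (log2 fold change 3.05, SE 0.44, adjusted p = 0.00261). Of the 14 Ikaros and FOXP family genes and FOXP3 partners tested, Ikzf4 alone rose. Satb1, Bach2, Foxp1 and Ikzf1 fell. Gata3, a factor of type 2 T cells that tissue regulatory T cells also use, rose by 1.09 (adjusted p = 0.0349), and Nfil3 by 1.69 (adjusted p = 0.0221). Gm28112, with a log2 fold change of 4.02, lies within Ikzf2 on the same strand (chr1:69660187-69662061 inside chr1:69531214-69687245), so reads of a gene in the rule can be counted to it and its value is not independent of the rule.

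Il1rl1 had the largest log2 fold change of all genes that passed, 5.74 (SE 0.50, adjusted p = 5.69e-05). The AAA_14 members gave 93 UMIs of it, the AAA_7 members 73 and the Sham members 20, against 5, 0 and 0 UMIs in the other CD4 T cells. In the members that was 95.6, 176 and 71.0 CPM. Il1rl1 and Gata3 also mark group 2 innate lymphoid cells, and of the 4 other markers of those cells looked for, Il5 and Il13 were at 0 in the members of all 3 libraries and Calca and Hs3st1 at 0 in AAA_7 and Sham members. Of the suppressive mediators, 6 of 15 could be tested: 3 rose and none fell. Il10, the cytokine interleukin-10, rose by 3.74 (SE 0.52, adjusted p = 0.00221). Of its 61 AAA_14 UMIs, however, 54 lay in members without a Foxp3 UMI, 34 of them in 1 cell. CD8 T cells gave 28.3, 31.9 and 0 CPM of Il10 in AAA_14, AAA_7 and Sham, against 62.7, 24.1 and 32.0 CPM in the members. Gzmb, which encodes the killing protease granzyme B, stood at 176, 135 and 114 CPM in AAA_14, AAA_7 and Sham members, against 13.8, 19.8 and 0 CPM (3.60, SE 0.43, adjusted p = 0.000802). Few members carried it: 16 of 112 in AAA_14, 14 of 54 in AAA_7 and 2 of 26 in Sham, and 1 cell held 69 of 171, 15 of 56 and 28 of 32 of its UMIs. Nt5e, which encodes the adenosine-forming enzyme CD73, rose by 1.95 (adjusted p = 0.0107), and Itgav, an integrin chain that can activate TGF-beta, by 1.62 (adjusted p = 0.0239).

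**Figure D1:**
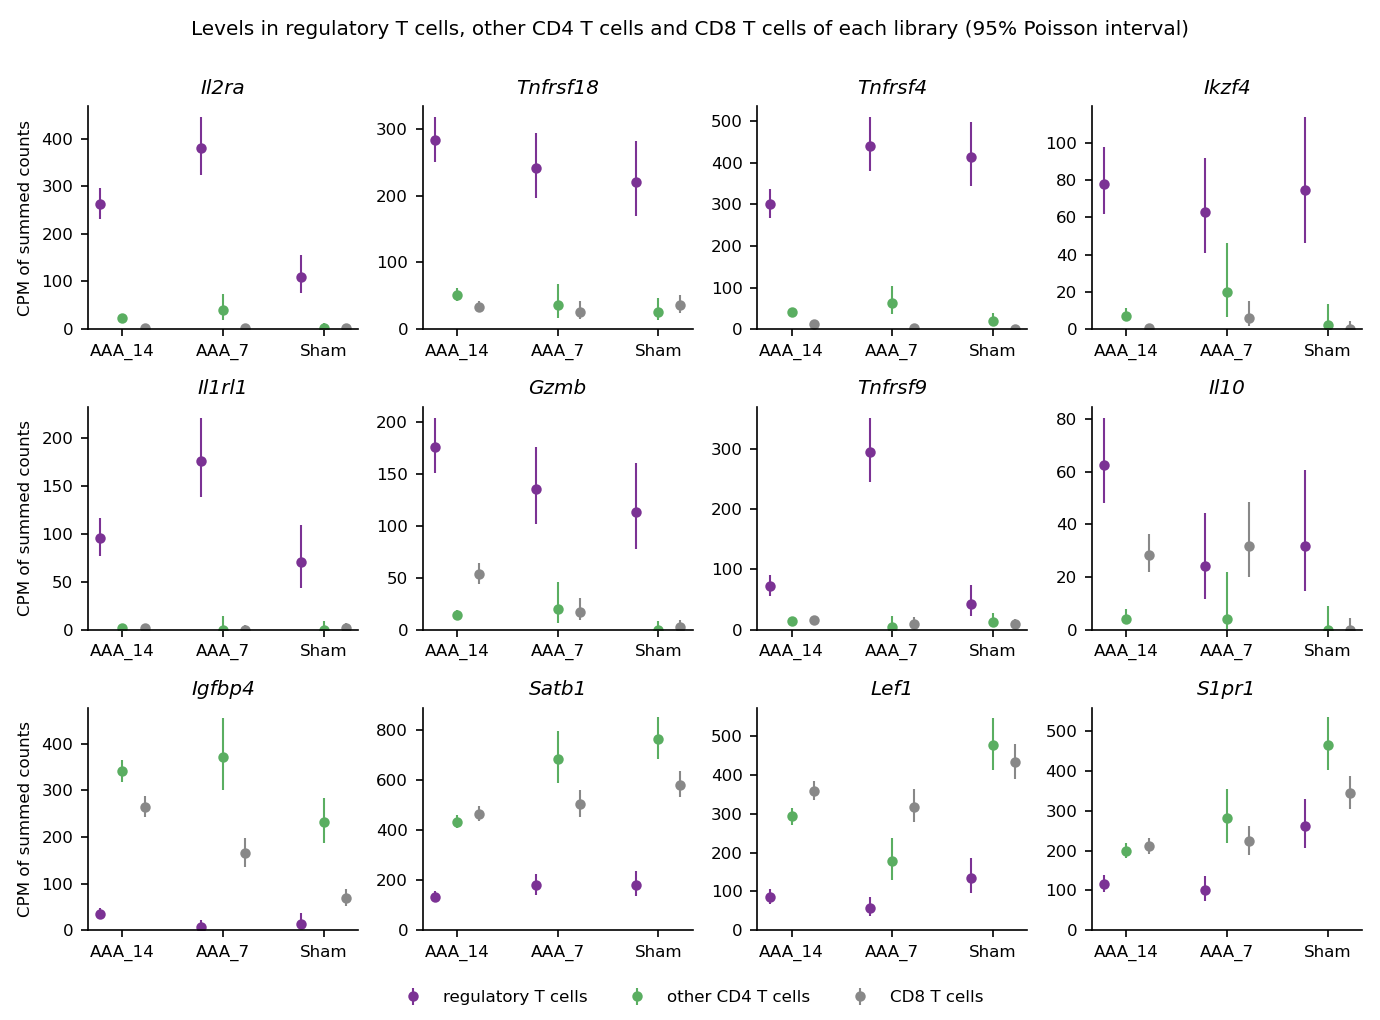
Summed level in CPM (y axis, from 0) of 12 genes in the regulatory T cells, the other CD4 T cells and the CD8 T cells, with AAA_14, AAA_7 and Sham from left to right; bars are exact Poisson 95% intervals and cover counting error only. Il2ra stood at 262, 381 and 110 CPM in the regulatory cells, above its level in both other populations in every library.

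Genes of resting and recirculating T cells went the other way. Of 13 such genes tested, 7 fell and none rose, with a median log2 difference of -1.17. Igfbp4, a secreted binding protein of insulin-like growth factors that marks naive CD4 T cells, stood at 33.9, 7.24 and 14.2 CPM in AAA_14, AAA_7 and Sham members, against 342, 372 and 232 CPM in other CD4 T cells (-4.14, SE 0.36, adjusted p = 5.69e-05). Satb1, a chromatin organiser that FOXP3 represses, stood at 133, 179 and 181 CPM, against 432, 684 and 762 CPM (-2.07, SE 0.22, adjusted p = 0.000207). Lef1 and Tcf7, partner factors of naive T cells, fell by 1.93 and 1.76 on the log2 scale (adjusted p = 0.000802 and 0.00261). S1pr1, the receptor for egress into lymph, fell by 1.17 (adjusted p = 0.018) and Bach2 by 1.83 (adjusted p = 0.0191). Ccr7 at -0.99 and Klf2 at -0.84 did not pass (adjusted p = 0.0603 and 0.0572).

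Cd40lg, the ligand by which helper T cells license B cells and macrophages, stood at 17.5, 36.2 and 7.10 CPM in AAA_14, AAA_7 and Sham members, against 38.8, 233 and 103 CPM in other CD4 T cells (-2.39, SE 0.40, adjusted p = 0.00848). Of 14 homing receptors tested, 2 fell and none rose; Cxcr6, a receptor of tissue-resident T cells, was 1 of them (-1.99, adjusted p = 0.0318). Of 11 genes of the TGF-beta axis 1 rose, Itgav, and 1 fell, Tgfbr2 (-1.18, adjusted p = 0.0429). None of 15 interferon-stimulated genes and none of 13 T cell receptor response genes passed in edgeR's test, with 5 and 3 at an unadjusted p under 0.05, and DESeq2 called 0 in both lists. None of the 16 cell cycle genes passed either test, while 12 had an unadjusted p under 0.05 in edgeR and their median difference was 0.74. Ribosomal protein genes fell in 24 of 87 cases and rose in none, with a median of -0.45. All 3 neutrophil markers that could be tested fell, S100a8 by 3.05 and S100a9 by 3.02 on the log2 scale among them. Neutrophil markers summed to 255, 683 and 81.7 CPM in members, against 3026, 1298 and 1560 CPM in other CD4 T cells. Without cells of 10 or more other-lineage UMIs the sums were 259, 114 and 83.3 CPM, against 338, 241 and 103 CPM. The part of neutrophil RNA in the differences between the populations was not tested.

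**Figure D2:**
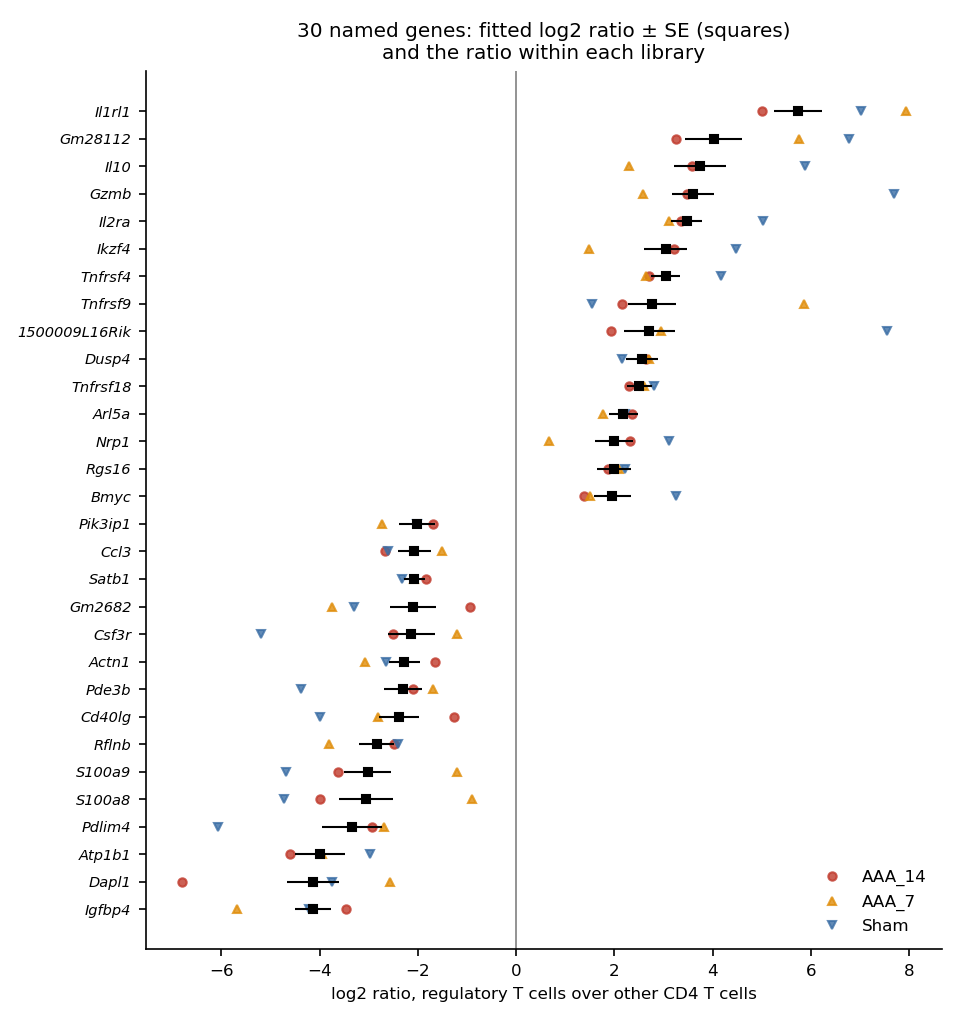
Log2 fold change, on the x axis, of the genes named for the largest changes in regulatory over other CD4 T cells, with standard errors as bars on black squares and the ratio in each library as coloured points. Il1rl1 stands highest at 5.74 and Igfbp4 lowest at -4.14.

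The count of genes rested on the library. Without Sham 9 genes passed, 5 of them shared with the 115, and without AAA_7 60 passed, 45 shared, while without AAA_14 221 passed, 71 shared. The 5 that passed with any library left out were Il1rl1, Il2ra, Tnfrsf4, Gzmb and Igfbp4, with adjusted p values of 0.0173, 0.0156, 0.0251, 0.04 and 0.0358 when Sham was left out. Tnfrsf18, Satb1, Ikzf4, Tnfrsf9, Lef1 and Tcf7 then had adjusted p values between 0.0518 and 0.227. With DESeq2 75 genes passed, 66 of them shared, and Tnfrsf9, Gata3, Nfil3, Tgfbr2 and S100a8 were not among them (adjusted p = 0.17, 0.0761, 0.103, 0.0972 and 0.0512).

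Promoters are shown for 3 of the genes that rose, because Il1rl1, Tnfrsf9 and Gzmb held most of the motif matches found among the 15 genes named as higher. The windows run from 250 bases before to 50 bases after a start site and are RefSeq sequences of build GRCm38.p6. Capitals mark matches, on either strand, to 4 short patterns. They are GATAAG for the family of GATA3, TGTTTAC for forkhead factors, the family of FOXP3, TGANTCA for AP-1, and TTCNNNGAA for STAT factors. Il1rl1 is known to be transcribed from a distal and a proximal start site; the 3' reads cannot tell which was used here.
Il1rl1 promoter 1: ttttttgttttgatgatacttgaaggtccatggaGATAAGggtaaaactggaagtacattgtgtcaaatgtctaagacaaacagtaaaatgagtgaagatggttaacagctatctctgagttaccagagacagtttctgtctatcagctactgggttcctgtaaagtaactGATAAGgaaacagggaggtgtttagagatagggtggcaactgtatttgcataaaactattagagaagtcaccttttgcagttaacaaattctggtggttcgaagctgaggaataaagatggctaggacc
Il1rl1 promoter 2: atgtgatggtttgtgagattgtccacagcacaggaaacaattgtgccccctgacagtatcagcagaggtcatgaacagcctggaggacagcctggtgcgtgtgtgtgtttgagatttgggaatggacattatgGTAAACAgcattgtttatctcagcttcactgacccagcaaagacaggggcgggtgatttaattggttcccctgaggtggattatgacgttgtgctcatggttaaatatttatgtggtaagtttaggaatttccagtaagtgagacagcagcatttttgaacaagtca
Tnfrsf9 promoter 2: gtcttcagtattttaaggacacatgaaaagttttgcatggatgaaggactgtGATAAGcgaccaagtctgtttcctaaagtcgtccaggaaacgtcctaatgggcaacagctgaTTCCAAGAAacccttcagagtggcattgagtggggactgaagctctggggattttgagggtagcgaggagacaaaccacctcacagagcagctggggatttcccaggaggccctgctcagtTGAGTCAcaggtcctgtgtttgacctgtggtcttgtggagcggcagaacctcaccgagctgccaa
Gzmb promoter 1: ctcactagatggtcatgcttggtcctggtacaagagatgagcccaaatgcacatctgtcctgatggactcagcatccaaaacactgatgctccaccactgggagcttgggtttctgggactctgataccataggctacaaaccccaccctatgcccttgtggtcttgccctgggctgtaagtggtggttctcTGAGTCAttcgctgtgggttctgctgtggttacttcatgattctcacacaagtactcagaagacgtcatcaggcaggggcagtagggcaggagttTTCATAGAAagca
The first Il1rl1 window, at chr1:40429320-40429619 on the plus strand, held GATAAG at -216 and -79 from the start. The second, at chr1:40439379-40439678 on the plus strand, held the reverse forkhead match GTAAACA at -117. The Tnfrsf9 window at chr4:150927749-150928048 on the plus strand held GATAAG at -198, TTCCAAGAA at -136 and TGAGTCA at -15. It is the second of 2 Tnfrsf9 windows, and the first is not shown. The Gzmb window at chr14:56262285-56262584 on the minus strand held TGAGTCA at -58 and TTCATAGAA 38 bases after the start. Over 32851 promoters of this length 7.44% held the GATA letters, 3.65% the forkhead letters, 7.81% the AP-1 letters and 8.30% the STAT letters. Of the 15 genes named as higher, 11 had 13 promoters in the table. Of those 13 promoters, 3 held the GATA letters, 3 the STAT letters, 2 the AP-1 letters and 1 the forkhead letters. Of the 15 named as lower, 12 had 16 promoters, and 1 of these promoters, of Dapl1, held the forkhead letters.  The matches of 1 window did not overlap each other, and a match describes letters, not binding.

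Against CD8 T cells (249 in AAA_14, 167 in AAA_7 and 143 in Sham) the members differed in many more genes, 806 of 7024 (11.5%), with 411 higher (5.85%) and 395 lower (5.62%). The size of the change is given here as a log2 fold change. Il2ra rose by 7.14 (SE 0.38), Areg, the growth factor amphiregulin, by 6.42 (SE 0.44) and Itgb8, the integrin chain that pairs with Itgav to activate TGF-beta, by 6.20 (SE 0.73). Lrrc32, which encodes the TGF-beta anchor GARP, rose by 4.99 and Klrg1 by 4.90. Prf1, which encodes perforin, fell by 5.27, the cytokine gene Xcl1 by 4.90 and the receptor gene Klrd1 by 4.06. Eomes, a factor of CD8 and NK cells, was also among the genes that fell. Of 16 identity genes tested 12 rose, of 17 effector and tissue regulatory genes 12 rose, and of 13 resting genes 11 fell. Here 15 of 16 cell cycle genes rose and 76 of 91 ribosomal protein genes fell. Without the cells that had 2 or more UMIs of other lineages the count was 276.

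The members that entered without a Foxp3 UMI were tested on their own, since 75 of 192 members carry the label through Ikzf2 and Ctla4 alone. Of 4329 genes 17 passed (0.393%) between these 75 and the other CD4 T cells, 2 higher (0.0462%) and 15 lower (0.347%). The 2 higher were Il2ra, at 130, 101 and 151 CPM in AAA_14, AAA_7 and Sham, against 22.5, 39.6 and 2.39 CPM (log2 fold change 2.38, SE 0.52, adjusted p = 0.0482), and Tnfrsf4 (2.37, SE 0.48, adjusted p = 0.0251). Igfbp4 gave 1, 2 and 0 UMIs in these members, against 820, 94 and 97 in other CD4 T cells (-6.20, SE 0.58, adjusted p = 3.48e-06). Satb1, S1pr1, Lef1 and Dapl1 were also lower. So were the phagocyte and neutrophil genes Lyz2, Cxcl2, Ccl3, Acod1, S100a8 and S100a9, whose RNA was more abundant in the other CD4 T cells. Members with a Foxp3 UMI had 355, 593 and 103 CPM of Il2ra in AAA_14, AAA_7 and Sham, against 130, 101 and 151 CPM in members without one. For Tnfrsf4 the values were 421, 618 and 368 CPM, against 130, 208 and 705 CPM. Both genes were higher with a Foxp3 UMI in AAA_14 and AAA_7 and lower with it in Sham, where the 7 members without Foxp3 gave 6 and 28 UMIs of them.

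The members were not uniform. Il1rl1 was found in 15 of 112 AAA_14, 17 of 54 AAA_7 and 5 of 26 Sham members, against 2 of 294, 0 of 77 and 0 of 75 other CD4 T cells and 18 of 1522, 1 of 420 and 2 of 360 B cells. Other genes of the ST2 state are given for these carriers and for the members without Il1rl1 side by side, with no test. Klrg1 was found in 10 of 15, 8 of 17 and 2 of 5 carriers, against 6 of 97, 5 of 37 and 1 of 21 of the members without Il1rl1. Areg was found in 7, 8 and 0 carriers, against 7, 7 and 3 of the others. Il2ra was found in 13, 14 and 3 carriers, against 57, 13 and 9, and Gata3 in 13, 11 and 5, against 42, 19 and 10. Il10 was found in 0, 1 and 0 carriers, against 11, 6 and 2 of the others. The carriers were deeper in each library, with medians of 7640, 3732 and 11733 UMIs, against 5884, 3643 and 5226, and the part of depth was not tested.

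Genes of resting and of tissue states were both found within the members. Ccr7 was found in 22.3% of AAA_14, 20.4% of AAA_7 and 50% of Sham members, and in 7.14%, 7.41% and 26.9% after thinning to 1000 UMIs. The other CD4 T cells gave 42.9%, 22.1% and 77.3%, and B cells, which also use this receptor, 48.9%, 48.1% and 65.3%. At least 1 of Il1rl1, Klrg1, Areg, Il10, Cxcr6 and Itgae was found in 53.6%, 64.8% and 46.2% of members, or 25%, 35.2% and 19.2% after thinning. Other CD4 T cells gave 26.5%, 36.4% and 1.33%, or 12.6%, 19.7% and 0% after thinning. CD8 T cells gave 47.4%, 34.1% and 27.3%, or 11.2%, 14.4% and 6.29% after thinning, so these genes were not particular to the members. Members with the tissue genes and without Ccr7 numbered 50 of 112 in AAA_14, 30 of 54 in AAA_7 and 7 of 26 in Sham. Members with both numbered 10, 5 and 5.

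Genes of the cell cycle were found in a part of the members. At 1000 UMIs a cell, 3 or more of 16 cell cycle genes were found in 15.2% of AAA_14, 25.9% of AAA_7 and 23.1% of Sham members, against 11.2%, 9.21% and 8% of other CD4 T cells and 4.42%, 5.39% and 2.10% of CD8 T cells. Unthinned, 67.9%, 48.1% and 65.4% of the members had 3 or more. At full depth 15, 14 and 7 members had 8 or more of them, and after thinning 4, 2 and 2. More genes are found in deeper cells, and the members with 8 or more at full depth had a median of 19170, 16227 and 14733 UMIs, against 5564, 3151.5 and 4538 UMIs in the rest. They held 32.9%, 58.9% and 65.4% of all member UMIs.

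Some cytokine signals came from very few members. Il17a, the signature cytokine of Th17 cells, gave 108 UMIs in 7 AAA_14 members, 66 of them in 1 cell and 2 of the 7 with a Foxp3 UMI, and none in the other libraries. Il21, a cytokine of follicular helper T cells, gave 35 UMIs in 7 AAA_14 members, 25 of them in 1 cell; 1 of these members had Foxp3 and none had Il2ra. AAA_7 gave 0 UMIs of it and Sham 2. Penk, which encodes the opioid precursor proenkephalin, gave 45 UMIs in AAA_14, 30 of them in 1 cell, and 71 in AAA_7, 46 of them in 1 cell. Ccl5 gave 232 UMIs in AAA_7, 190 of them in 1 cell. A ratio between libraries of such a gene rests on those cells.

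Between the libraries, the members' summed UMIs were compared as a log2 ratio of CPM with an exact binomial 95% interval, and a gene was counted as higher or lower when it differed by at least 2-fold and its interval left out 0. Of 8575 genes with at least 10 UMIs, 1699 (19.8%) did so in AAA_14 over Sham, 1389 higher (16.2%) and 310 lower (3.62%). Of 6718 genes 1454 (21.6%) did so in AAA_7 over Sham, 1207 higher (18%) and 247 lower (3.68%), and of 8932 genes 944 (10.6%) in AAA_14 over AAA_7, 460 higher (5.15%) and 484 lower (5.42%). The median gene stood at 0.41 in AAA_14 over Sham and at 0.39 in AAA_7 over Sham, against -0.01 in AAA_14 over AAA_7, and the values below are read against these. Centred on the median gene, the split was 679 higher and 797 lower in AAA_14 over Sham and 687 higher and 607 lower in AAA_7 over Sham. The first 2 comparisons share the Sham members and all 3 share libraries, and values of the same libraries' other CD4 T cells are given beside some of the members' values.

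Trafficking and tissue genes were higher in both libraries titled as aneurysm. Ccr2, the receptor for monocyte chemoattractants that also marks inflamed-tissue T cells, stood at 406 CPM from 395 UMIs in AAA_14, 348 CPM from 144 UMIs in AAA_7 and 49.7 CPM from 14 UMIs in Sham members. Its log2 ratio was 2.98 (2.27 to 3.92) in AAA_14 over Sham and 2.76 (2.01 to 3.71) in AAA_7 over Sham, beside 4.56 and 5.55 in other CD4 T cells. Phagocytes also express Ccr2; without the members that had 10 or more UMIs of other lineages, left out after the data had been seen, the ratios were 2.80 and 2.41, and without those of 2 or more such UMIs they were -0.78 and 1.59. Cxcr6 gave 83 and 16 UMIs in AAA_14 and AAA_7 and 0 in Sham members, at least 8.01-fold and 3.63-fold higher when Sham is set at 3 counts; after thinning, the AAA_7 over Sham ratio was -1.05. Other CD4 T cells gave 160, 352 and 4.78 CPM of Cxcr6 in AAA_14, AAA_7 and Sham, so they were higher over Sham too. Itgae, which encodes the integrin chain CD103, gave 68, 17 and 2 UMIs and Itgb7, its usual partner chain, 329, 108 and 30 UMIs. Of 22 homing receptors with enough UMIs 12 were higher and 2 lower in AAA_14 over Sham, with a median of 1.28. Of 19 such genes 8 were higher and 1 lower in AAA_7 over Sham, with a median of 0.91 that was -0.03 after thinning.

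The effector and tissue genes of regulatory T cells were higher in 9 of 17 cases in AAA_14 over Sham and in 14 of 19 in AAA_7 over Sham, none lower, with medians of 1.00 and 2.01. The first median was -0.56 when members with 2 or more UMIs of other lineages were left out, which left 11 AAA_14, 21 AAA_7 and 12 Sham members. Areg stood at 74.0 CPM in AAA_14, 253 CPM in AAA_7 and 21.3 CPM in Sham members (1.69, 0.61 to 3.29, in AAA_14 over Sham; 3.46, 2.40 to 5.05, in AAA_7 over Sham), against 1.67, 3.96 and 0 CPM in other CD4 T cells. Klrg1 stood at 83.3, 101 and 17.8 CPM, against 1.25, 0 and 0 CPM; without members of 2 or more other-lineage UMIs its AAA_7 over Sham ratio was -0.36. Rora, a nuclear receptor of tissue T cells, stood at 262, 497 and 99.4 CPM, and Id2, an inhibitor of E-protein factors, at 413, 437 and 88.8 CPM. In AAA_14 over Sham the ratios of Areg, Klrg1, Rora and Id2 turned to -2.95, -2.66, -1.25 and -0.33 once those members were left out. Other CD4 T cells gave 133, 467 and 11.9 CPM of Rora and 338, 491 and 86.0 CPM of Id2. Il1rl1 itself was 1.29 higher in AAA_7 over Sham (0.58 to 2.10), while AAA_14 over Sham gave 0.40 (-0.28 to 1.21), an interval that includes the median gene.

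**Figure D3:**
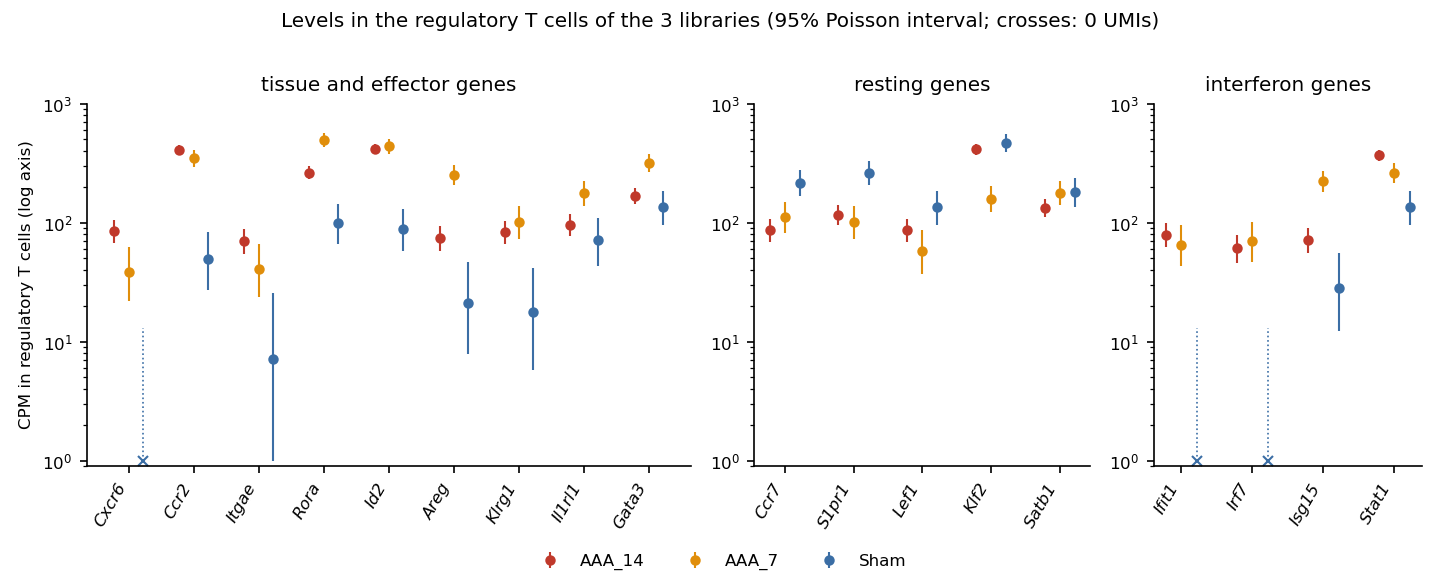
Level in CPM of genes in the regulatory T cells of AAA_14, AAA_7 and Sham, left to right, with exact Poisson 95% intervals that cover counting error only. Ccr2 stood at 406, 348 and 49.7 CPM, while Ccr7 ran the other way at 86.4, 111 and 217 CPM.

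Il2ra and Il2rb, which encode chains of the interleukin-2 receptor, were higher in both comparisons with Sham. Of the genes of interleukin-2 and STAT5 signalling 5 of 14 were higher and none lower in AAA_14 over Sham, with a median of 0.76, and 4 of 13 higher and 1 lower in AAA_7 over Sham, with a median of 0.52. Of 14 checkpoint and costimulation genes 3 and 2 were higher and none lower, with medians of 0.49 and 0.15, near the background of all genes. Il2ra stood 1.23 (0.71 to 1.84) higher in AAA_14 over Sham and 1.77 (1.23 to 2.40) in AAA_7 over Sham, and Il2rb, the signalling chain of the same receptor, 1.66 and 1.59, beside 2.67 and 3.53 for Il2ra and 2.32 and 3.26 for Il2rb in other CD4 T cells. Icos, a costimulatory receptor, stood at 537, 654 and 202 CPM in AAA_14, AAA_7 and Sham members, against 219, 918 and 248 CPM in other CD4 T cells. Tnfrsf9 was 2.74 higher in AAA_7 over Sham (1.93 to 3.78) and 0.71 in AAA_14 over Sham (-0.14 to 1.78). Tnfrsf18 at 0.35 (-0.04 to 0.78) and 0.13 (-0.34 to 0.61) and Gzmb at 0.61 (0.08 to 1.22) and 0.24 (-0.40 to 0.92) were not called in either comparison, and neither was Tnfrsf4, at -0.47 (-0.78 to -0.14) and 0.09 (-0.25 to 0.44).

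Of 14 genes of resting and recirculating cells tested in AAA_14 over Sham, 1 was higher and 2, Ccr7 and S1pr1, were lower. Of 13 tested in AAA_7 over Sham, 1 was higher and 4 were lower, S1pr1 among the lower. Ccr7 stood at -1.33 (-1.82 to -0.83) in AAA_14 over Sham and -0.96 (-1.55 to -0.39) in AAA_7 over Sham, and S1pr1 at -1.18 (-1.61 to -0.73) and -1.37 (-1.96 to -0.81). Other CD4 T cells gave -1.98 and -1.80 for Ccr7 and -1.22 and -0.72 for S1pr1. Klf2, which drives S1pr1, stood at 411, 159 and 465 CPM and was lower in AAA_7 over Sham alone (-1.54, -2.00 to -1.11). Over the list of resting genes the median was 0.03 in AAA_14 over Sham, which is below the median gene, and -0.96 in AAA_7 over Sham.

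Interferon-stimulated genes were higher in 12 of 16 cases in AAA_14 over Sham and 9 of 16 in AAA_7 over Sham, none lower, with medians of 2.14 and 2.36, or 1.02 and 1.61 without the members that had 10 or more UMIs of other lineages. Ifit1 gave 77 and 27 UMIs and Irf7, a master factor of the interferon response, 59 and 29 UMIs in AAA_14 and AAA_7, against 0 UMIs of either in Sham. Other CD4 T cells stood 3.91 and 3.69 higher over Sham for Ifit1 and 2.57 and 1.55 higher for Irf7. Isg15, a ubiquitin-like protein, stood at 71.0, 222 and 28.4 CPM, beside 63.4, 226 and 23.9 CPM in other CD4 T cells; after thinning its AAA_14 over Sham ratio was -0.52. Genes known to respond to tissue dissociation were higher too, 10 of 15 and 6 of 15, Junb and Zfp36 among them. Junb stood at 1.62 (1.36 to 1.90) in AAA_14 over Sham and 2.35 (2.09 to 2.64) in AAA_7 over Sham, and Zfp36 at 2.25 (1.78 to 2.79) and 1.73 (1.22 to 2.30), beside 1.06 and 2.55 for Junb and 1.95 and 1.78 for Zfp36 in other CD4 T cells. Lars2, the mitochondrial leucyl-tRNA synthetase, gave 281, 139 and 1 UMIs in AAA_14, AAA_7 and Sham members, or 289, 336 and 3.55 CPM. Other CD4 T cells had log2 ratios of 4.64 and 5.55 over Sham. CD8 T cells gave 250, 406 and 9.82 CPM of Lars2, B cells 261, 374 and 12.2 CPM, and phagocytes 188, 320 and 0 CPM. The difference in Lars2 was therefore not particular to the members. Phagocyte marker RNA moved in the same direction as these genes, 1807 and 2281 CPM in AAA_14 and AAA_7 members against 17.8 CPM in Sham members, and its part was not tested.

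**Figure D4:**
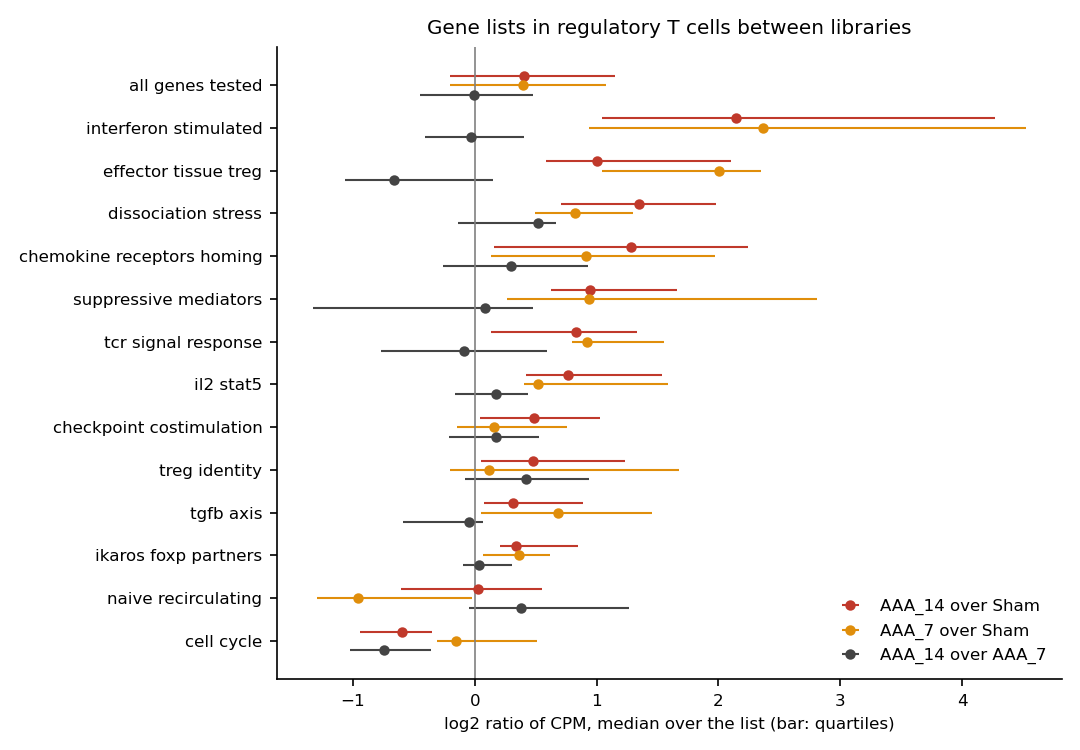
Median log2 ratio of each gene list in the regulatory T cells for each library comparison, coloured as in the legend, beside all genes tested; bars span the quartiles of the list. The interferon list stands at 2.14 and 2.36 in the comparisons with Sham, and the cell cycle list at -0.60 and -0.16.

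Between AAA_14 and AAA_7 the tissue genes ran the other way: 2 of 18 were higher and 6 lower, with a median of -0.67. Areg was lower in AAA_14 (-1.77, -2.23 to -1.33), as were Tnfrsf9 (-2.03, -2.48 to -1.60) and Tnfrsf1b, a receptor for tumour necrosis factor (-1.07, -1.40 to -0.74). The acid-sensing receptor gene Gpr65 stood at 22.6, 147 and 46.2 CPM in AAA_14, AAA_7 and Sham members, from 22, 61 and 13 UMIs. Plek stood at 21.6, 159 and 7.10 CPM, from 21, 66 and 2 UMIs. The lactate transporter gene Slc16a3 stood at 16.5, 116 and 3.55 CPM, from 16, 48 and 1 UMIs. In AAA_7, phagocytes gave 151, 595 and 176 CPM of Gpr65, Plek and Slc16a3, and CD8 T cells 78.4, 205 and 66.8 CPM. The part of phagocyte RNA in the members' values of these 3 genes was not tested. Higher in AAA_14 were Izumo1r, the folate receptor 4 of regulatory T cells (1.12, 0.77 to 1.49, but -0.38 with a mitochondrial limit of 5%), Klf2 (1.36, 0.99 to 1.77), Cxcr3, a receptor for interferon-induced chemokines (1.41, 0.50 to 2.60), Nlrc5, which drives MHC class I genes (1.88, 1.14 to 2.79), and P2rx7, a receptor for extracellular ATP (2.39, 1.11 to 4.48). Cell cycle genes were lower in 4 of 16 cases and higher in none, both against AAA_7 and against Sham. Members with 8 or more of these genes held 32.9%, 58.9% and 65.4% of member UMIs in AAA_14, AAA_7 and Sham. Their part in these ratios was not tested.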

How the data were processed

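The deposited counts are whole UMI counts per gene and barcode of 3 libraries made with a 10x 3' kit. Per the file headers, version 6.1.2 of Cell Ranger wrote them; mm10 is given as the build and Seurat as a further tool, per the submitters' processing notes; Seurat's part is not given in the sources used here. The rule for members was applied to these counts, barcodes of the other classes were gated on a few genes each, and UMIs were summed per class and library (112, 54 and 26 members in AAA_14, AAA_7 and Sham). Classes were compared with edgeR 4.0.16 (quasi-likelihood, TMM, filterByExpr, library as a block, Benjamini-Hochberg) and, as an alternative, DESeq2 1.42.0. Because each class is compared within the same libraries, p-values measure the spread between 3 libraries, not animals. Libraries were compared as log2 ratios of CPM with 0.5 counts added and exact conditional binomial 95% intervals. The class test was also run on simulated sums, drawn without differences between libraries other than size and without single cells. That run cannot tell how the test behaves where libraries differ or 1 cell holds much of a sum. No doublet was removed in the values given: Scrublet (scanpy 1.11.5) set its automatic threshold at almost no cell, and leaving out the 224, 83 and 12 highest scores of AAA_14, AAA_7 and Sham, or 0.8% per 1000 cells, took out 5, 5 and 0 members.

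Genes named are those of the rule, list members with at least 10 UMIs (up to 6 by UMIs and 4 by ratio), up to 15 per direction between classes, and up to 10 between libraries with 30 or more UMIs and 50 or more CPM where higher. Nfil3, Tnfrsf1b, Cd69 and Mki67 fell outside these and were chosen after their values were seen. The members and gene lists were chosen with earlier results of these data known. A further comparison, with a subset of the other CD4 T cells, is not reported here. Promoters were taken from RefSeq.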

Additional observations from a re-analysis of the deposited data

Results flagged for a closer look

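Among the genes named in the library comparisons, 10 pairs of gene and comparison differed in direction between regulatory and other CD4 T cells. In each pair the counting intervals lay on opposite sides of 0. Only named genes were looked at, so the count follows their choice, and no share over all genes was computed. Mki67 and Cd69 were chosen after their values were seen. Each group is 1 library, so the difference between the populations was not tested. Values are log2 ratios of CPM with 95% counting intervals, regulatory T cells given before other CD4 T cells.

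Cell cycle genes made up 4 of the 10. Mki67 stood at -0.89 (-1.24 to -0.53) in AAA_14 over Sham regulatory cells, against 1.98 (1.24 to 2.96) in other CD4 T cells. Ube2c, a mitotic ubiquitin-conjugating enzyme, stood at -2.27 (-2.59 to -1.94), against 1.48 (0.83 to 2.29), in AAA_14 over Sham. In AAA_14 over AAA_7 Ube2c stood at -1.12 (-1.48 to -0.76), against 1.56 (0.73 to 2.71). Hmgb2, a chromatin protein of dividing cells, stood at -0.91 (-1.04 to -0.78) in AAA_14 over Sham, against 0.54 (0.38 to 0.71). These summed values rest on few cells. The 15 AAA_14, 14 AAA_7 and 7 Sham members with 8 or more cell cycle genes held 32.9%, 58.9% and 65.4% of member UMIs. The Sham member with 81533 UMIs alone gave 30 UMIs of Mki67. By cells, 67.9% of AAA_14 and 65.4% of Sham members had 3 or more cell cycle genes, or 15.2% and 23.1% after thinning. The part of these cells in the ratios was not tested.

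Tnfrsf4 stood at -0.47 (-0.78 to -0.14) in AAA_14 over Sham regulatory cells, against 1.03 (0.08 to 2.36) in other CD4 T cells, and Hopx at -1.12 (-1.60 to -0.63), against 1.04 (0.13 to 2.27). Cd69, an early activation and residency receptor, stood at -1.46 (-2.05 to -0.90) in AAA_7 over Sham, against 0.63 (0.20 to 1.06), and at 0.93 (0.45 to 1.47) in AAA_14 over AAA_7, against -1.05 (-1.38 to -0.70). In AAA_14 over AAA_7 Cxcr6 stood at 1.11 (0.36 to 2.02), against -1.14 (-1.47 to -0.79), although with a Foxp3 UMI required it was -0.35 in regulatory cells. Maf, a factor of interleukin-10 producing and follicular T cells, stood at 0.57 (0.35 to 0.80) in AAA_14 over AAA_7, against -1.27 (-1.50 to -1.02).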

How the results depend on the processing

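Libraries could not be paired with each other, each group being 1 library. The populations were compared within libraries, and without the library block 5 genes passed against other CD4 T cells (115 with it), 169 against CD8 T cells (806) and 1 in members without a Foxp3 UMI (17). Leaving out 1 library gave 9 to 221, 480 to 888 and 20 to 72 genes, and DESeq2 75, 468 and 9. Against other CD4 T cells the count was 343 with no filter on low counts, 203 with a mitochondrial limit of 20%, 201 without members and other cells of 10 or more other-lineage UMIs and 183 without the cell with most UMIs, the last 2 chosen after seeing the data. Against CD8 T cells it was 276 without cells of 2 or more other-lineage UMIs and 259 when thinned. Members without Foxp3 gave 56 with no filter, 11 with strict other CD4 cells and 8 without cells of 10 or more other-lineage UMIs. The share of T cells in AAA_14, AAA_7 and Sham was 15.2%, 10.7% and 0% at a 5% mitochondrial limit. It was 7.06%, 6.29% and 4.57% with a Foxp3 UMI required. With a Cd4 UMI required it was 7.60%, 6.29% and 3.37%, and when thinned 6.21%, 7.46% and 3.15%.

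Between libraries, thinning gave 190 genes in AAA_14 over Sham, 198 in AAA_7 over Sham and 213 in AAA_14 over AAA_7. Leaving out members of 2 or more other-lineage UMIs gave 327, 474 and 213, and 5 counts added gave 812 in AAA_14 over Sham. Thinning keeps fewer UMIs and the second leaves 11, 21 and 12 members. Signs turned for these called ratios of genes and for these medians of lists, which have no call. In AAA_14 over AAA_7 the main values were 1.41 for the helper list, -1.43 for Fcer1g and 1.13 for H2-Aa. Thinned: Isg15 -0.52 (AAA_14 over Sham), Cxcr6 -1.05 (AAA_7 over Sham) and the helper list -1.01 (AAA_14 over AAA_7). Without members of 2 or more other-lineage UMIs, in AAA_14 over Sham: the effector list -0.56, Ccr2 -0.78, Areg -2.95, Klrg1 -2.66, Rora -1.25, Id2 -0.33 and Fgl2 -1.81; in AAA_7 over Sham Klrg1 -0.36; in AAA_14 over AAA_7 the helper list -0.048, Penk 0.51 and Fcer1g 0.15. In AAA_14 over AAA_7 the 5% limit gave Izumo1r -0.38 and Fcer1g 0.013, a required Foxp3 UMI gave the helper list -0.26, Cxcr6 -0.35, Il10 -1.07 and H2-Aa -0.16, and removal at 10 or more other-lineage UMIs gave H2-Aa -2.62. Beyond what these settings remove, the cause was not tested. The 5% limit left no Sham member, so no ratio over Sham could be had. TMM factors and centring on the median gene turned no called ratio.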
